A study of Mus musculus with 6 samples.

Results

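Cell cycle genes were followed through 6 mouse breast tumors by RNA sequencing. The genes were 52 named regulators and components of DNA synthesis and cell division, 21 of them active in S phase and 31 in mitosis, out of 18460 genes listed in at least 1 tumor. They were chosen by name and role, with earlier results of these data known, and all 52 were listed in all 6 tumors. All 52 also passed the filter on low counts, as did 13706 genes in all, with between 26 and 5302 reads for a member in a tumor.

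All 6 tumors came from female Balb/c mice that carried PyMTtg, the polyoma middle T oncogene under the MMTV promoter, which drives tumors of the mammary epithelium. All were also Rag1KO, so the hosts made no mature T or B cells of their own, and all were injected with CD4+ T cells at 4 weeks of age. Tumors were collected at endpoint, between weeks 18 and 20. The 3 test tumors (K14-TSLPtg;PyMTtg;Rag1KO+CD4+ T cells) differed from the 3 control tumors (PyMTtg;Rag1KO+CD4+ T cells) by a further transgene, which puts the cytokine TSLP under the K14 promoter of keratinocytes. The comparison asks how tumors that grew with TSLP and CD4+ T cells differ from those that grew with CD4+ T cells alone. Levels are given as FPKM, fragment counts set against transcript length and library size, or as CPM, counts set against library size alone after scaling between libraries. The 3 values of a group always follow the replicate numbers. *Tslp* was listed at 0.19, 0.20 and 0.29 FPKM in control tumors and at 1.27, 0.72 and 0.19 FPKM in test tumors, so test replicate 3 was no higher than the control tumors, and levels this low do not check the labels.

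The libraries held 8373390 to 9449565 estimated reads in genes. Control replicate 2 stood apart from its group: its log2 CPM over all tested genes correlated at 0.916, 0.922 and 0.930 with the 3 test tumors and at 0.867 and 0.902 with the other control tumors. All 9 markers of luminal epithelium were expressed in every tumor, with *Krt8* between 214 and 798 FPKM. The T cell markers were near 0: of 8, *Trac* was listed in no tumor and the other 7 reached at most 1.90 FPKM. In tissue of this kind, fewer dividing cells and less RNA per dividing cell cannot be told apart.

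Cells entering S phase switch on E2F target genes: cyclin E and its kinase fire replication origins, the MCM helicase and its loaders license those origins in advance, and a nucleotide supply pathway feeds the polymerases. Before and during mitosis another wave follows, which makes cyclin B, the mitotic kinases and the spindle machinery. It is driven by B-MYB bound to the MuvB complex and then by FOXM1, at promoters that often hold CCAAT boxes and cell cycle homology regions, and the DREAM complex keeps the same promoters silent in resting and early cycling cells. Because these transcripts are made mainly in cycling cells, their level in a tumor is widely read as a measure of proliferation.

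No member differed between test and control tumors beyond the spread between replicates. Of the 52 members, 0 passed an adjusted p of 0.05 in edgeR's quasi-likelihood test (p adjusted after Benjamini and Hochberg), against 0% of all tested genes (0 of 13706). No member had an unadjusted p under 0.05 either, against 8.41% of all tested genes. The lowest adjusted p of a member was 0.668, for *Tk1*. DESeq2 also called 0 members, against 313 of 13706 tested genes. Limma-trend called 0 members, against 1 of 12890 genes on log2(FPKM + 1) and 0 on log2(FPKM + 0.1). An unadjusted p under 0.05 was found by DESeq2 for 1 member (*Tk1*), against 1386 of 13706 genes. By limma-trend it was found for 0 members, against 930 and 914 of 12890 genes on the 2 scales. The standard error of a member's log2 fold change ran from 0.25 to 0.77 with a median of 0.40. Small differences were therefore not detectable with 3 tumors a group, and large ones were not called either. Over all tested genes the log2 fold change ran from -7.65 to 8.02, with 0 called by edgeR. The count of 0 members thus does not exclude larger differences.

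The members leaned toward the test tumors all the same. The median log2 fold change, test over control, was 0.20 for the 21 S phase members and 0.15 for the 31 mitosis members, beside 0.02 over all tested genes. These medians equal folds of 1.15 and 1.11. In all, 17 of 21 S phase members and 23 of 31 mitosis members had a higher level in test tumors. Over all tested genes it was 7058 of 13706. S phase and mitosis did not come apart, since their medians differed by -0.05, mitosis minus S phase. Within tumors, the mean log2(CPM + 0.5) of mitosis members exceeded that of S phase members by 0.33 ± 0.14 in control and 0.29 ± 0.10 in test tumors (SD, n = 3 each).

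**Figure D1:**
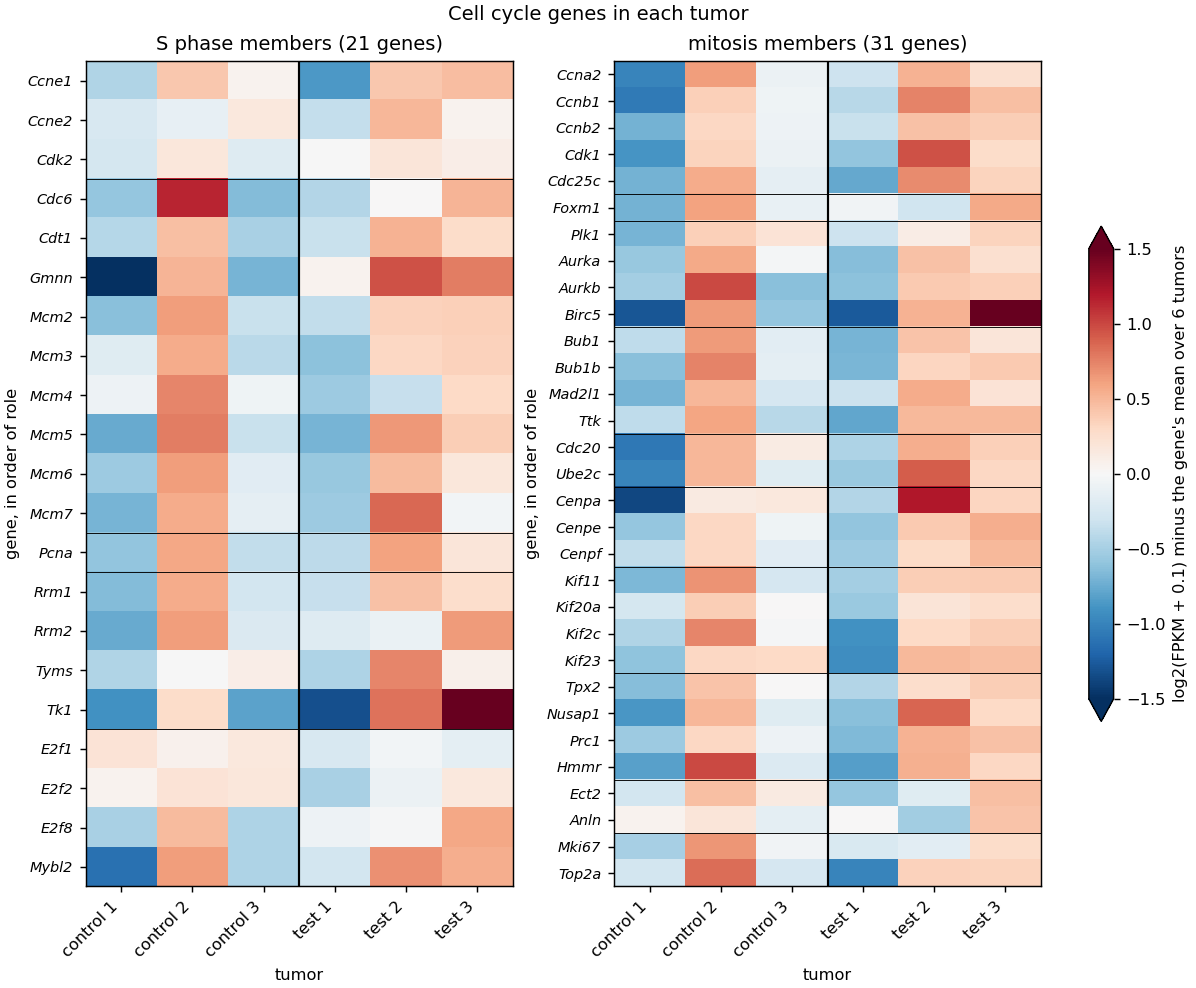
Level of each member in each tumor, as log2(FPKM + 0.1) minus the mean of that gene over the 6 tumors (color scale from -1.5 to 1.5), with S phase members on the left, mitosis members on the right, and lines between roles. Control replicate 2 and test replicates 2 and 3 are mostly red, and control replicates 1 and 3 and test replicate 1 mostly blue, on both sides of the line between the groups.

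The tumors varied more within each group than the group medians did. The mean log2(CPM + 0.5) of the S phase members was 4.68, 5.52 and 4.81 in the control tumors and 4.63, 5.55 and 5.49 in the test tumors. That of the mitosis members was 4.86, 5.88 and 5.26 in the control tumors and 4.81, 5.90 and 5.83 in the test tumors. In both phases control replicate 1 and test replicate 1 were the lowest tumors, and control replicate 2 and test replicates 2 and 3 the highest. Which of them came first or last turned on the scale: the extremes were test replicates 1 and 2 in CPM, while the mean log2(FPKM + 0.1) was lowest in control replicate 1 (3.13 for S phase and 3.15 for mitosis) and highest in control replicate 2 (4.13 and 4.32). The 52 genes took 0.182%, 0.399% and 0.246% of all reads in the control tumors and 0.197%, 0.355% and 0.359% in the test tumors, so that both extremes of this share were control tumors.

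Most members kept a like order within each group, but did not share an order over all 6 tumors. In CPM, 25 members were lowest in test replicate 1 and 21 in control replicate 1, while test replicate 2 held the highest value of 24 members, control replicate 2 that of 16, and test replicate 3 that of 11. Control replicate 2 was above both other control tumors for 47 of 52 members, while the same held for 39.8% of all tested genes. Test replicate 1 was below both other test tumors for 50 of 52 members, against 35.1% of all tested genes. It was below control replicate 2 for all 52. No member had groups that did not overlap in CPM, against 6.12% of all tested genes with every test tumor higher and 5.86% with every test tumor lower.

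The result therefore turned on single tumors. Without control replicate 2, 49 of 52 members were higher in test tumors, and the medians were 0.62 for S phase and 0.51 for mitosis. In that comparison 2 members, *Gmnn* and *Mybl2*, had an unadjusted p under 0.05, against 14.3% of all tested genes, and 0 had an adjusted p of at most 0.05, against 1.28%. Without control replicate 1 only 25 of 52 members were higher in test tumors, with medians of 0.02 and -0.06, and without test replicate 2 it was 26 of 52, with medians of -0.07 and 0.00. Without test replicate 1 it was again 49 of 52, with medians of 0.44 and 0.46. Without control replicate 3 it was 36 of 52 (0.10 and 0.14), and without test replicate 3 it was 32 of 52 (0.16 and 0.02). In these fits the median over all tested genes ran from -0.01 without test replicate 2 to 0.04 without control replicate 2.

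**Figure D2:**
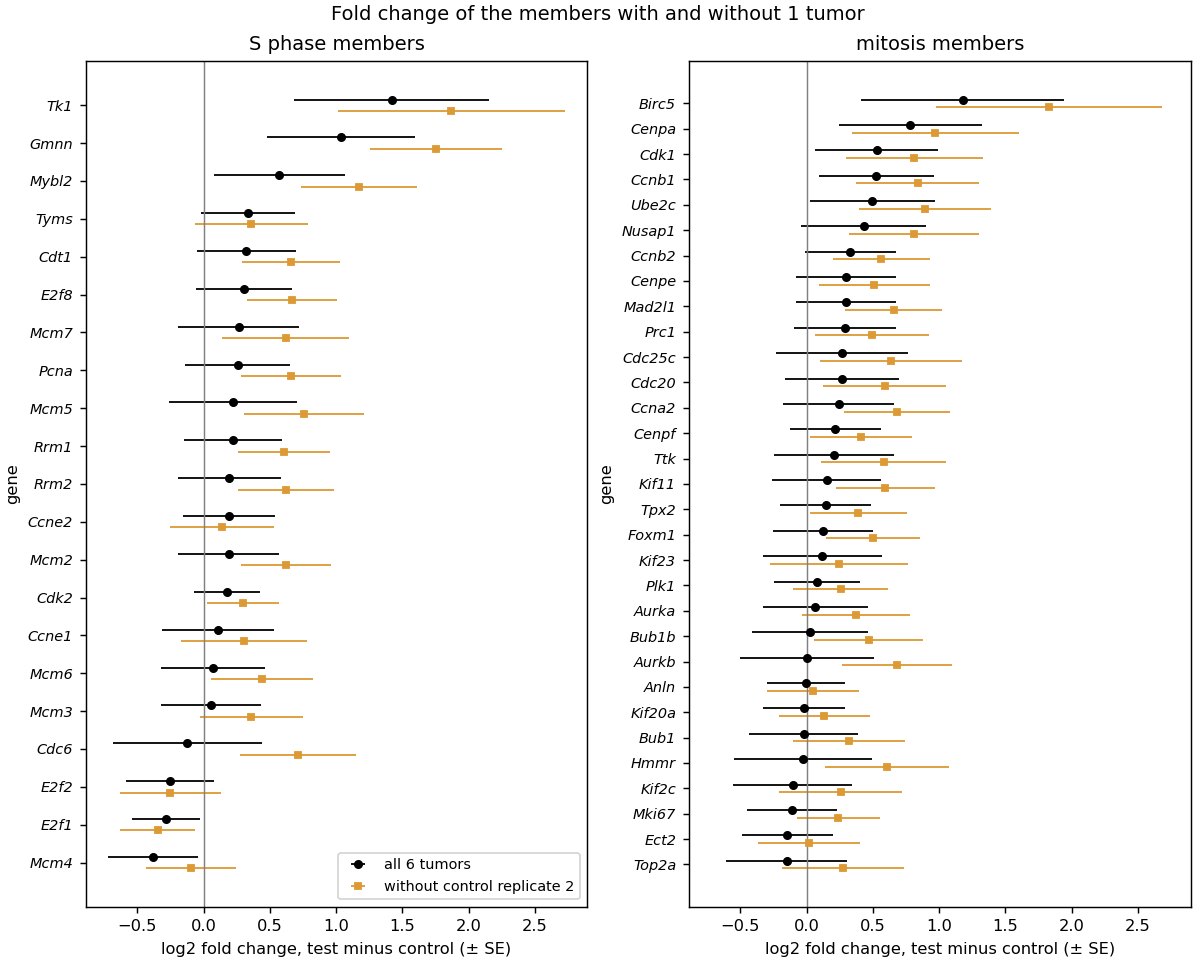
Log2 fold change, test minus control, with its standard error for the 21 S phase members on the left and the 31 mitosis members on the right, from all 6 tumors (black circles) and without control replicate 2 (orange squares). The orange values lie to the right of the black ones for most genes, and *Tk1*, *Gmnn*, *Birc5* and *Cenpa* have the highest values with all tumors.

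Among the genes of S phase entry, *Ccne1* encodes cyclin E1, the activator of CDK2. It was at 6.75, 12.3 and 9.64 FPKM in control and 5.08, 12.3 and 12.8 FPKM in test tumors. The groups overlapped throughout, with a log2 fold change of 0.11 (SE 0.42). *Ccne2* and *Cdk2* had values of 0.19 and 0.18.

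The 9 genes of origin licensing had a median log2 fold change of 0.19, and 7 of them were higher in test tumors. *Mcm2*, a subunit of the MCM helicase that unwinds DNA at origins, stood at 10.7, 25.8 and 13.2 FPKM in control and 12.8, 21.1 and 21.3 FPKM in test tumors (log2 fold change 0.19, SE 0.38). Its highest value was in a control tumor and its lowest in another. The 6 helicase subunits *Mcm2* to *Mcm7* did not share a sign: *Mcm5* and *Mcm7* stood at 0.22 and 0.26, *Mcm3* and *Mcm6* at 0.06 and 0.07, and *Mcm4* at -0.38 (SE 0.34), the lowest value of any member. *Mcm4* was at 13.3, 23.2 and 13.3 FPKM in control and 9.51, 10.98 and 17.2 FPKM in test tumors, with 2 test tumors below all control tumors.

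The regulators of licensing ranged more widely than the helicase subunits did. *Gmnn* encodes geminin, which binds CDT1 and blocks relicensing after origins have fired. It was at 2.88, 12.6 and 5.41 FPKM in control and 9.17, 17.2 and 15.2 FPKM in test tumors, a log2 fold change of 1.04 (SE 0.56, adjusted p = 0.685 by edgeR). All test tumors were above control replicates 1 and 3, and control replicate 2 was above test replicate 1. The log2 fold change of *Gmnn* was 1.75 without control replicate 2 (SE 0.50, adjusted p = 0.173 by edgeR) and 0.69 without control replicate 1. *Cdt1*, the loading factor that geminin blocks, had a log2 fold change of 0.32 (SE 0.37), and *Cdc6*, its partner in loading, one of -0.12 (SE 0.56). *Cdc6* was at 1.63, 5.61 and 1.54 FPKM in control and 1.80, 2.49 and 3.58 FPKM in test tumors. Its log2 fold change turned sign with single tumors left out, to 0.71 without control replicate 2 and 0.11 without test replicate 1.

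*Pcna*, the sliding clamp of the replicative polymerases, had the highest mean level of the S phase members, with 52.8, 118 and 61.4 FPKM in control and 60.4, 120.5 and 89.7 FPKM in test tumors (log2 fold change 0.26, SE 0.39). The highest control and the highest test tumor were close to each other. All 4 genes of nucleotide supply were higher in test tumors. *Rrm1* and *Rrm2*, the subunits of ribonucleotide reductase, stood at 0.22 and 0.20, and *Tyms*, thymidylate synthase, at 0.33. *Tk1*, thymidine kinase 1, stood highest of all members, with a log2 fold change of 1.42 (SE 0.74, adjusted p = 0.668 by edgeR), and its values are given with those of *Birc5* further on.

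The transcription factors of S phase gave both signs. *E2f1*, an activator of S phase genes, was at 9.18, 8.27 and 8.88 FPKM in control and 6.69, 7.70 and 7.12 FPKM in test tumors. It was the only member whose groups did not overlap in FPKM, with every test tumor lower, as were 6.15% of all tested genes. After scaling between libraries the groups overlapped, at 24.2, 19.7 and 21.2 CPM against 15.9, 20.0 and 17.6 CPM, with a log2 fold change of -0.28 (SE 0.26, adjusted p = 0.792 by edgeR). The exact two-sided permutation test on log2(CPM + 0.5) gave p = 0.2, where 3 tumors against 3 cannot go below 0.1. *E2f1* was the only member with its highest value in control replicate 1.

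*E2f2*, another activator, was at 2.21, 2.46 and 2.41 FPKM in control and 1.49, 1.99 and 2.38 FPKM in test tumors (-0.25, SE 0.33), and 2 test tumors were below all control tumors. *E2f8*, a repressor of E2F targets that peaks late in S phase, had a value of 0.31 (SE 0.36). *Mybl2*, which encodes B-MYB and links S phase to the mitotic wave, was at 1.94, 6.73 and 3.10 FPKM in control and 3.55, 7.03 and 6.38 FPKM in test tumors (log2 fold change 0.57, SE 0.49). The value of *Mybl2* was 1.18 without control replicate 2 (SE 0.44, adjusted p = 0.290 by edgeR) and 0.27 without control replicate 1.

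All 5 genes of mitotic entry were higher in test tumors, with a median log2 fold change of 0.33. *Ccnb1*, cyclin B1, was at 8.21, 22.1 and 16.5 FPKM in control and 12.9, 28.8 and 23.5 FPKM in test tumors (log2 fold change 0.53, SE 0.43). *Cdk1*, its kinase, was at 7.08, 16.7 and 12.4 FPKM in control and 8.68, 25.7 and 15.97 FPKM in test tumors (0.53, SE 0.47). Each test tumor thus had a control tumor at or above its level except test replicate 2, and for *Ccnb1* test replicate 3. Without test replicate 2 the values were 0.23 for *Ccnb1* and 0.04 for *Cdk1*.

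*Ccna2*, cyclin A2, which acts in S phase and at mitotic entry, stood at 21.03, 64.6 and 39.2 FPKM in control and 33.6, 60.2 and 49.2 FPKM in test tumors (0.24, SE 0.42). *Ccnb2* and the phosphatase gene *Cdc25c* had values of 0.33 and 0.27. *Foxm1*, the transcription factor of the mitotic wave, was at 5.86, 14.7 and 8.89 FPKM in control and 9.24, 7.83 and 14.3 FPKM in test tumors (0.12, SE 0.38). Unlike most mitosis genes it was lowest among the test tumors in replicate 2.

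The 3 mitotic kinases had log2 fold changes near 0. *Aurka*, the spindle pole kinase, was at 11.2, 24.6 and 16.3 FPKM in control and 10.7, 22.6 and 19.7 FPKM in test tumors (0.06, SE 0.40). *Aurkb*, the kinase of the chromosomal passenger complex, had a log2 fold change of 0.00 (SE 0.51), and *Plk1* one of 0.08 (SE 0.33). *Birc5* encodes survivin, a subunit of the same passenger complex as Aurora B, and unlike *Aurkb* it had a log2 fold change of 1.18 (SE 0.77, adjusted p = 0.715 by edgeR).

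The spindle checkpoint genes ran from -0.02 for *Bub1* through 0.03 for *Bub1b* and 0.21 for *Ttk* to 0.30 for *Mad2l1*. *Cdc20*, the activator of the anaphase promoting complex, was at 14.3, 42.8 and 33.0 FPKM in control and 22.0, 44.1 and 38.9 FPKM in test tumors (0.27, SE 0.43), and its highest control and test tumors were again close. *Ube2c*, the E2 enzyme of that complex, had a value of 0.50 (SE 0.47). *Cenpa*, the histone H3 variant of centromeres, was at 5.31, 15.2 and 15.4 FPKM in control and 10.2, 31.8 and 17.2 FPKM in test tumors (log2 fold change 0.78, SE 0.54, adjusted p = 0.731 by edgeR). Test replicate 2 held the highest value by a wide margin, and test replicate 1 lay below 2 of the control tumors. Without test replicate 2 the value of *Cenpa* was 0.21. The other centromere genes, *Cenpe* and *Cenpf*, stood at 0.30 and 0.22.

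The spindle motors lay between -0.11 (*Kif2c*) and 0.15 (*Kif11*), and the spindle and midzone genes between -0.03 (*Hmmr*) and 0.43 (*Nusap1*). Both cytokinesis genes were near or below 0, with *Ect2* at -0.15 (SE 0.34) and *Anln* at -0.01 (SE 0.30). *Ect2*, the exchange factor that sets up the contractile ring, was at 5.07, 8.45 and 6.77 FPKM in control and 4.11, 5.43 and 8.49 FPKM in test tumors, so the highest control and test tumors were close here too. *Anln*, the ring scaffold anillin, was placed differently: it was lowest in test replicate 2, at 4.85 FPKM, and highest in test replicate 3, at 9.47 FPKM.

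*Mki67*, which encodes the marker Ki-67 that coats mitotic chromosomes, was at 25.8, 58.1 and 35.1 FPKM in control and 31.1, 32.8 and 44.2 FPKM in test tumors (log2 fold change -0.11, SE 0.34, adjusted p = 0.944 by edgeR). The highest tumor was control replicate 2. *Top2a*, topoisomerase II alpha, was at 23.4, 50.5 and 23.7 FPKM in control and 14.2, 35.8 and 35.5 FPKM in test tumors (-0.15, SE 0.46). Thus *Mki67* and *Top2a*, both widely used as markers of proliferation, were lower on average in test tumors while 40 of the 52 members were higher, but their values turned to 0.24 and 0.27 without control replicate 2, and to 0.0063 and 0.18 without test replicate 1.

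Transcript length moved with part of this. In test replicate 2 the deviation of each gene from its mean over tumors fell with gene length, with a Spearman correlation of -0.497 across 13706 genes, and in the other 5 tumors this value ran from -0.0353 to 0.271. Genes are not independent replicates, so these are descriptions. Of the members, *Cenpf* (11130 bases) and *Mki67* (10098 bases) are the longest. With each tumor's trend with length removed, *Mki67* had a log2 fold change of 0.13, *Top2a* 0.05 and *Anln* 0.15. *Cenpf* moved up from 0.22 to 0.55. Of the short members, *Gmnn* moved down from 1.04 to 0.78, *Cenpa* from 0.78 to 0.52, *Ube2c* from 0.50 to 0.15 and *Pcna* from 0.26 to 0.017. The medians were 0.23 for S phase and 0.17 for mitosis, 44 of 52 members were higher in test tumors, and 0 passed the adjusted threshold by edgeR.

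The S phase and mitosis members moved together across tumors, and their promoters were searched for the motifs known from these waves. RefSeq windows on GRCm38.p6, 250 bases before to 50 bases after the transcription start, were at hand for 18 of 21 S phase members (20 windows) and 25 of 31 mitosis members (27 windows). The letters searched on either strand were TTTGAA or TTCGAA for the cell cycle homology region (CHR), CCAAT, and TTTCCCGC, TTTCGCGC, TTTGCCGC or TTTGGCGC for E2F. The CHR letters were in 22 of 27 mitosis windows (81.5%) and in 4 of 20 S phase windows (20.0%), beside 19.2% of all 32851 promoter windows. The E2F letters went the other way, with 8 of 20 S phase windows (40.0%) and 1 of 27 mitosis windows (3.7%), that of *Cdk1*, beside 2.26% of all windows. CCAAT was in 65.0% and 81.5% of the windows, beside 37.4% of all, and CHR together with CCAAT in 20 of 27 mitosis windows.

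The other genes of each phase had the same arrangement: CHR letters were in 63.5% of the windows of other mitosis genes and 21.3% of those of other S phase genes, and E2F letters in 9.52% and 29.8%. A match of letters is a description and no evidence of binding. The 250 bases before the start of 3 mitosis and 3 S phase members are shown so that the difference can be seen, with every searched motif in capitals (overlapping motifs run together). The landmark genes come first, and *Mcm6* was added as the S phase member with the most E2F matches. All 6 lie on the minus strand of GRCm38.p6 and are written 5′ to 3′ toward the gene.

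*Mki67* (chr7:135716380-135716629) has 2 CHR and 3 CCAAT matches, *Top2a* (chr11:99024190-99024439) has 4 CHR and 6 CCAAT matches, and *Ccnb1* (chr13:100786487-100786736) has 2 CCAAT matches and no CHR match in these letters.
Mki67: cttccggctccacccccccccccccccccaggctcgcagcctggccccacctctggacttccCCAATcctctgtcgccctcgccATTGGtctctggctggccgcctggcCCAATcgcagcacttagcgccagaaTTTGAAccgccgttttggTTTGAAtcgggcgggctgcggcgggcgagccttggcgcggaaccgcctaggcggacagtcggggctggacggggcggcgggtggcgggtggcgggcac
Top2a: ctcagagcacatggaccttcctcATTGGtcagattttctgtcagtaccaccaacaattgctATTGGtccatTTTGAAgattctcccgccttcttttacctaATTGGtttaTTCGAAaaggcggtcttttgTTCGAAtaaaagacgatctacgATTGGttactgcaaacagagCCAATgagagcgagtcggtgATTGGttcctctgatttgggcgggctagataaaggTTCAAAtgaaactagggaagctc
Ccnb1: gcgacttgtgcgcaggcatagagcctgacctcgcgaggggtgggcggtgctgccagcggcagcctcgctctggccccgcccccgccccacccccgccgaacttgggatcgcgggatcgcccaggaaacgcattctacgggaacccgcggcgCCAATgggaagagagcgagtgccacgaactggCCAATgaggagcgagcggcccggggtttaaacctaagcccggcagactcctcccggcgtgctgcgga
*Pcna* (chr2:132253181-132253430) has 1 CCAAT match, *Mcm2* (chr6:88898781-88899030) has 1 CHR and 1 CCAAT match, and *Mcm6* (chr1:128359706-128359955) has 3 E2F matches, of which 2 overlap, and 2 CCAAT matches.
Pcna: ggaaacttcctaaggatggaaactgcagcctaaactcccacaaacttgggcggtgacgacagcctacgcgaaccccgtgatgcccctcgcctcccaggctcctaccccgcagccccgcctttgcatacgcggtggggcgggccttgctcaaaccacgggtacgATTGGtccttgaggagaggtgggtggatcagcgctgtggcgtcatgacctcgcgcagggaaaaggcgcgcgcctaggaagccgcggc
Mcm2: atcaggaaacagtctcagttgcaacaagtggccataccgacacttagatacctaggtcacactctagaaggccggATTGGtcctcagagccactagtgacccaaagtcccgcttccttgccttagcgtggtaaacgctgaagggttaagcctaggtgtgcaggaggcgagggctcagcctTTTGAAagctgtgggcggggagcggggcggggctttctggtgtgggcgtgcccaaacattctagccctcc
Mcm6: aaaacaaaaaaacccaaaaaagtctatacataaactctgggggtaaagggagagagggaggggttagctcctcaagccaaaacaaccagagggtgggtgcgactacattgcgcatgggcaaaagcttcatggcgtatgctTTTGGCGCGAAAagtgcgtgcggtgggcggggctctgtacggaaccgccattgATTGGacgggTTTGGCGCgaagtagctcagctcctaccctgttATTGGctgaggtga

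**Figure D3:**
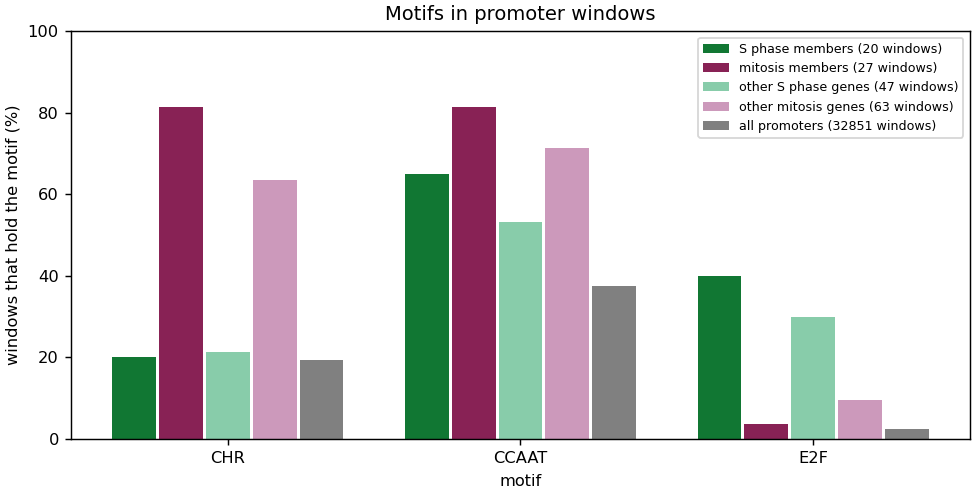
Share of promoter windows, in percent, that hold the CHR, CCAAT or E2F letters, for the S phase and mitosis members, the other genes of each phase and all promoters. CHR bars are high for mitosis genes (81.5% and 63.5%) and near the share of all promoters for S phase genes, and E2F bars are high for S phase genes (40.0% and 29.8%).

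*Tk1* and *Birc5* stood out from the other members through test replicate 3. *Tk1* was at 11.6, 26.3 and 12.4 FPKM in control and 8.67, 38.2 and 84.5 FPKM in test tumors. *Birc5* was at 18.8, 71.0 and 30.6 FPKM in control and 19.1, 65.7 and 178 FPKM in test tumors. For both, test replicate 3 was the highest tumor, test replicate 1 was at or near the lowest, and the groups overlapped. Without test replicate 3 the log2 fold change was 0.55 (SE 0.68) for *Tk1* and 0.19 (SE 0.69) for *Birc5*.

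The 2 genes are near neighbors on chromosome 11 of GRCm38, *Tk1* from 117815519 to 117826087 and *Birc5* from 117849237 to 117855743, and the genes around them were looked at after these values were seen. Of 23 tested genes that start within 1000 kb of the start of *Birc5*, *Tk1* and *Birc5* included, 19 had their highest level in test replicate 3. Their median log2(CPM + 0.5) in that tumor was 1.86 above the median of the other 5 tumors, and 18 of 23 were at least 1 above it, beside 4.78% of all tested genes. In the other 5 tumors the same median lay between -0.33 and 0.27. *Tk1* was 2.74 and *Birc5* 2.56 above the other tumors, while the 52 members had a median of 0.51 in this tumor.

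The high values reached on toward the end of the chromosome. From 5 Mb before *Birc5* onward, 112 of 164 tested genes (68.3%) were at least 1 above the other tumors, with a median of 1.36. On the rest of chromosome 11 it was 56 of 970 genes (5.77%), with a median of -0.07. The cut at 5 Mb was not a sharp edge. Before it, the median was 1.32 over 11 genes starting at 109 Mb and -0.65 over 6 genes at 110 Mb. Beyond *Birc5*, the tested genes from *Baiap2* (-0.56) to *Bahcc1* (-0.45) were all below 0. The other 4 members on this chromosome, *Hmmr*, *Aurkb*, *Cdc6* and *Top2a*, lie outside that stretch and had values of 0.56, 0.76, 1.00 and 0.51. The cause was not tested.

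**Figure D4:**
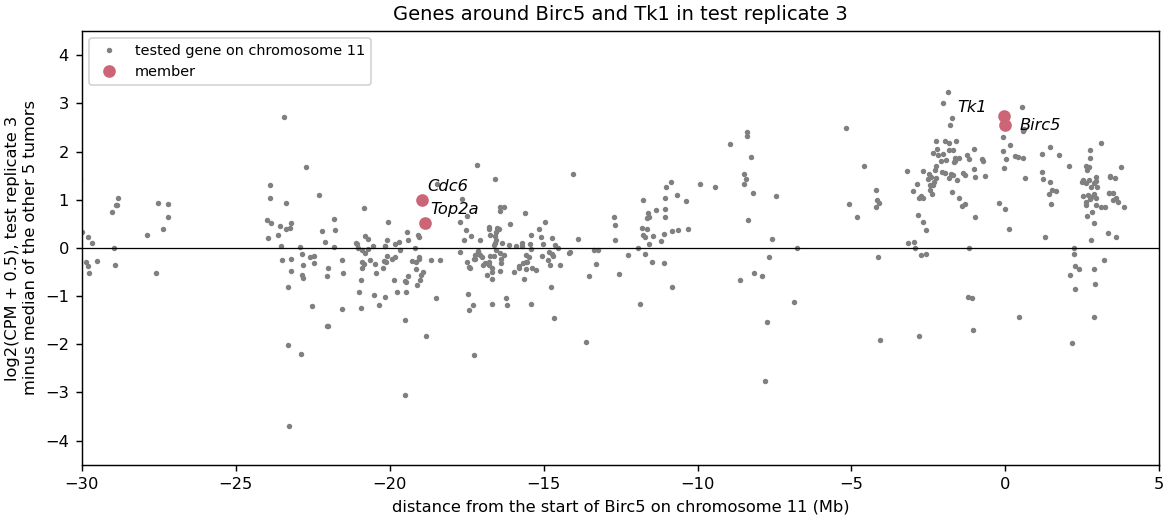
Log2(CPM + 0.5) in test replicate 3 minus the median of the other 5 tumors, for each tested gene on the last part of chromosome 11, by its distance in Mb from the start of *Birc5* (members in red). Genes lie around 0 up to about *Cdc6* and *Top2a* and mostly above 1 around *Tk1* and *Birc5*, which are at 2.74 and 2.56.

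Further genes of the pathway were read from lists that hold no member, also chosen with earlier results of these data known. Of 50 other S phase genes 38 were higher in test tumors, with a median log2 fold change of 0.18, and of 66 other mitosis genes 44 were, with a median of 0.13. None had an adjusted p of at most 0.05 or an unadjusted p under 0.05 by edgeR. Measured in the same tumors, they depended on single tumors as the members did. Without test replicate 2 it was 21 of 50 and 29 of 66 that were higher, with medians of -0.07 and -0.03, and without control replicate 1 it was 23 of 50 and 33 of 66, with medians of -0.01 and -0.0039. Without control replicate 2 it was 48 of 50 and 59 of 66, with medians of 0.53 and 0.50. Their tumor means followed the members: the other mitosis genes were at 4.01, 4.93 and 4.38 in control and 4.03, 4.89 and 4.80 log2(CPM + 0.5) in test tumors. Of the other S phase genes, *Rfc4* (a clamp loader subunit), *Rad51ap1* and *Lig1* (DNA ligase 1) had the highest values, 0.72, 0.66 and 0.62, which were 0.028, 0.065 and -0.072 without test replicate 2. *Brca1*, *Atad2* and *Rpa1* had the lowest, -0.57, -0.52 and -0.51.

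*Rpa1*, a subunit of the protein that coats single-stranded DNA, was at 43.5, 60.2 and 53.1 FPKM in control and 33.3, 42.3 and 32.8 FPKM in test tumors (SE 0.25, adjusted p = 0.647 by edgeR). Every test tumor was below every control tumor, which held for 1 of the 50 other S phase genes and for 5.86% of all tested genes in CPM. Of the other mitosis genes, *Pttg1* (securin) stood highest at 1.02, with *Cenpw* at 0.84 and *Spc24* at 0.77, but without test replicate 2 these were 0.19, 0.13 and -0.16. The genes *Gtse1*, *Cit* and *Ckap5* were lowest at -0.62, -0.50 and -0.45. *Gtse1*, a microtubule-binding protein that restrains p53, was at 17.0, 14.8 and 23.5 FPKM in control and 10.4, 11.2 and 14.1 FPKM in test tumors, again without overlap (SE 0.28, adjusted p = 0.610 by edgeR), as 1 of the 66 genes.

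The genes that hold cells in G1 varied widely between tumors. The 7 CDK inhibitor genes had a median log2 fold change of -0.34, and 5 of them were lower in test tumors. Without control replicate 2 the median was -0.81 with 0 of 7 higher, without test replicate 2 it was -0.75, and without control replicate 3 it was -0.13. By edgeR 0 of them, 0 of 8 G1 cyclins and kinases and 0 of 14 pocket protein, E2F and DREAM genes had an adjusted p of at most 0.05, and an unadjusted p under 0.05 was found for *Cdkn1a* and *Ccnd2* alone. *Cdkn1a*, which encodes the inhibitor p21, was at 287, 91.8 and 498 FPKM in control and 148, 94.5 and 109.7 FPKM in test tumors. Control replicate 2, the control tumor with the highest S phase and mitosis levels, was the lowest of all 6, just below test replicate 2. The tumors did not all follow an opposite order, since control replicate 3 was above control replicate 1 in those levels and in *Cdkn1a*. The log2 fold change was -1.32 (SE 0.56, adjusted p = 0.586 by edgeR), -1.75 without control replicate 2 (adjusted p = 0.0693 by edgeR) and -0.75 without control replicate 3 (adjusted p = 0.987 by edgeR).

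*Cdkn2a*, the locus of p16 and p19ARF, was at 45.5, 4.81 and 81.6 FPKM in control and 25.9, 25.8 and 17.7 FPKM in test tumors, so the lowest and both highest values were in control tumors. *Cdkn1c*, encoding p57, had a log2 fold change of -1.37 (SE 0.67), and of -0.60 without control replicate 3. Of the 8 G1 cyclins and kinases, *Ccnd2*, cyclin D2, was at 168, 2.82 and 82.2 FPKM in control and 2.72, 4.77 and 3.8 FPKM in test tumors. Control replicate 2 was again at the level of the test tumors. The log2 fold change was -4.51 (SE 1.22, adjusted p = 0.425 by edgeR and 0.0239 by DESeq2), and -5.08 without control replicate 2 (adjusted p = 0.0140 by edgeR).

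*Ccnd1*, cyclin D1, was at 182, 52.8 and 213 FPKM in control and 84.8, 108 and 187 FPKM in test tumors (-0.24, SE 0.56). The 14 genes of pocket proteins, other E2Fs and the DREAM complex had a median of 0.08 with 8 higher in test tumors. 3 of them had groups that did not overlap in CPM: *E2f6* at 0.56 and *Lin54* at 0.26 with every test tumor higher, and *E2f3* at -0.30 with every test tumor lower, beside 6.12% and 5.86% of all tested genes. Their lowest adjusted p was 0.655 by edgeR, and in FPKM the groups of all 3 overlapped.

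Markers of cell types varied between the tumors too, and by edgeR 0 of those tested had an adjusted p of at most 0.05. The mean log2(CPM + 0.5) of the 9 luminal epithelium markers was 7.47, 8.67 and 7.55 in control and 8.85, 8.81 and 8.94 in test tumors. Their median log2 fold change was 0.81 with 8 of 9 higher in test tumors (lowest adjusted p = 0.394 by edgeR), and it was 1.48 without control replicate 2 and 0.53 without control replicate 1. Of 7 markers of myoepithelium and basal epithelium 6 were lower in test tumors (median -0.69, and 0.62 without control replicate 3). Of 8 tested macrophage and dendritic cell markers 6 were lower (median -0.46, and -0.03 without control replicate 3).

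The 10 skeletal muscle markers had a mean log2(CPM + 0.5) of 0.22, 3.90 and 0.48 in control and 5.80, 4.13 and 3.16 in test tumors, so the groups overlapped. Their median log2 fold change was 2.37 with 10 of 10 higher in test tumors (lowest adjusted p = 0.513 by edgeR), 5.79 without control replicate 2 and 1.31 without test replicate 1. Of 7 adipocyte markers 3 were tested, all higher in test tumors with a median of 4.31 (2.18 without test replicate 1). The mean log2(CPM + 0.5) of the 7 was -0.07, 0.84 and 0.67 in control and 4.37, 2.74 and 0.23 in test tumors. Test replicate 3 thus lay within the range of the control tumors. Of 5 neutrophil markers 4 were tested, all lower in test tumors with a median of -1.18 (-0.42 without control replicate 1). Test replicate 1, highest in muscle markers, was also among the lowest in S phase and mitosis members. Test replicate 2 and control replicate 2, next in muscle markers, were among the highest in members. Control replicate 1, lowest in muscle markers, was among the lowest in members. The part of these differences in the members' levels was not tested.

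Set against the luminal markers, 51 of 52 members were lower in test tumors, but so were 13134 of 13706 tested genes. This comparison was chosen after the data were seen. The S phase members lay -2.79, -3.15 and -2.74 from the luminal mean in control and -4.22, -3.26 and -3.45 in test tumors, and the mitosis members -2.61, -2.79 and -2.29 in control and -4.04, -2.91 and -3.11 in test tumors. Every test tumor was below every control tumor in both. On that scale the median difference was -0.74 for S phase and -0.81 for mitosis members, and 28 of 52 members had groups that did not overlap with every test tumor lower. Over all tested genes the median difference was -0.96, and 29.7% of genes had such groups, because the luminal markers themselves were higher in test tumors.

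**Figure D5:**
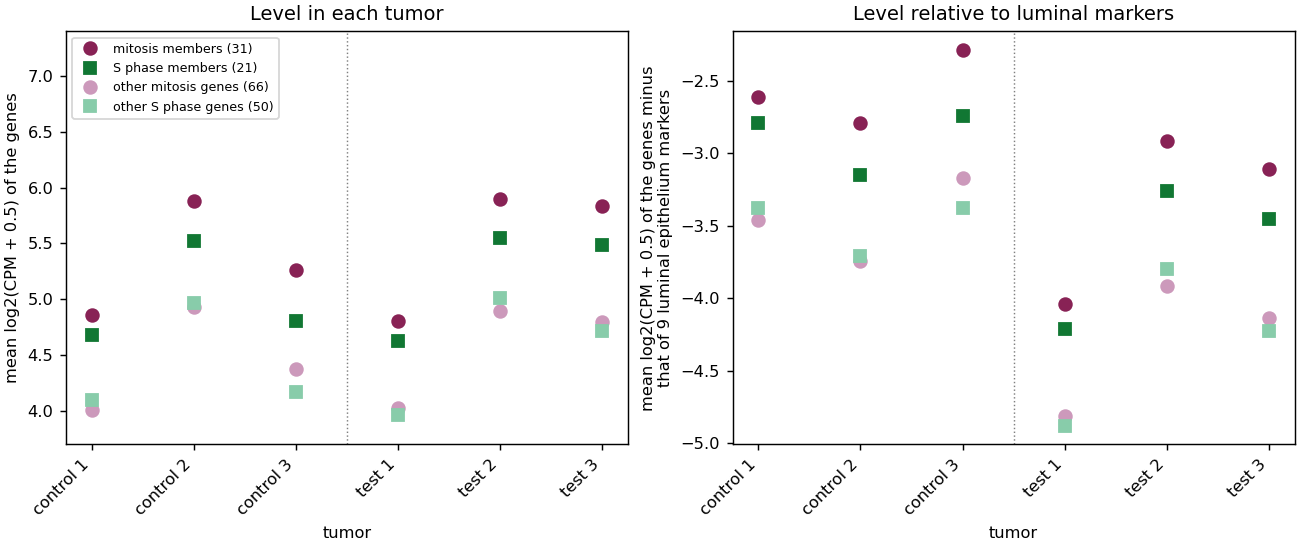
Mean log2(CPM + 0.5) of the S phase and mitosis members and of the other genes of each phase in each tumor (left), and the same minus the mean of 9 luminal epithelium markers in that tumor (right). On the left control replicate 2 and test replicates 2 and 3 are high in all 4 lists, and on the right the 3 test tumors are below the 3 control tumors in all 4.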

How the data were processed

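The deposited files held, for each tumor, an expected count and an FPKM per NCBI Gene id, estimated by the authors. RNA libraries were sequenced at BGI, reads were aligned with Bowtie to mm10, and the submitters' processing notes also list BWA and RSEM, with versions not given in the sources used here. A gene not listed in a tumor was taken as 0. Symbols came from RefSeq (GRCm38.p6) for 18400 of 18460 genes. Expected counts were rounded, filtered with filterByExpr, scaled by TMM and tested by edgeR 4.0.16's quasi-likelihood test (R 4.3.3) without covariates, with Benjamini-Hochberg adjustment over 13706 genes at a threshold of 0.05. The fit was also run on counts simulated from its own means and dispersions, with each gene drawn independently. These counts held no shift shared by many genes of a tumor, so that run does not cover such shifts. The study's methods name a Poisson method, NOISeq and EBSeq. DESeq2 1.42.0, limma 3.58.1 on log2(FPKM + 1) and log2(FPKM + 0.1), and a Poisson test on pooled counts were alternatives, besides other scaling, other filters, leaving out each tumor and a replicate block. Levels are log2(CPM + 0.5). Each member could be named, with values per tumor for 13 landmark genes, the 5 highest and 5 lowest log2 fold changes and groups that did not overlap. Members and lists were chosen with earlier results of these data known, and the lists of further genes were written for this work. Reads that share sequence with pseudogenes or overlapping genes could be split between them. P-values set the group difference against the spread between these tumors, except those of the pooled Poisson test, which ignores that spread.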

Additional observations from a re-analysis of the deposited data

How the results depend on the processing

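With 3 tumors a group the precision was low. The count of members called was 0 in edgeR under other scaling, other filters, the replicate block, the length correction (chosen after the data were seen) and without each tumor, and also 0 by DESeq2 and limma-trend. The Poisson test on pooled counts, which ignores the spread between tumors, called 35 members and 9608 genes in all. Over all genes DESeq2 called 313, limma-trend on log2(FPKM + 1) called 1 and on log2(FPKM + 0.1) called 0, and leaving out each tumor gave 0 to 182, the latter without control replicate 2. The mitosis minus S phase median ran from -0.14 without test replicate 3 to 0.077 without test replicate 2. Against the luminal epithelium markers, also chosen after the data were seen, the medians were -0.74 for S phase and -0.81 for mitosis, since those markers were higher in test tumors. Without the members that act in both phases the medians were 0.19 and 0.15.

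The replicate numbers did not pair the tumors: deviations of same-numbered tumors correlated at -0.0296, 0.112 and -0.138. With the number as a replicate block, 0 genes and 0 members passed, and the medians were 0.23 and 0.16. Some members near 0 turned sign without passing any threshold, and the cause was not tested. With the block, *Cdc6* stood at 0.062 and *Hmmr* at 0.021. In limma-trend *Cdc6* was at 0.0065 and *Hmmr* at 0.0078 with a pseudocount of 1, and at 0.054 and 0.011 with 0.1. With the length trend removed, *Aurka* was at -0.026, *Aurkb* -0.075, *Bub1* 0.13, *Kif20a* 0.055, *Hmmr* 0.089, *Anln* 0.15, *Mki67* 0.13 and *Top2a* 0.054. *Aurkb* was at -0.00447 with RLE scaling, -0.00446 in DESeq2, -0.014 without a filter and -0.0053 in the pooled test, where *Anln* was at 0.019. Leaving out each tumor in turn turned the sign of these log2 fold changes, whose range was *Ccne1* -0.086 to 0.44, *Ccne2* -0.10 to 0.40, *Cdc6* -0.44 to 0.71, *Mcm2* -0.018 to 0.62, *Mcm3* -0.14 to 0.36, *Mcm5* -0.10 to 0.76, *Mcm6* -0.20 to 0.44 and *Mcm7* -0.27 to 0.62. The range was *Pcna* -0.047 to 0.66, *Rrm2* -0.10 to 0.63, *Tyms* -0.075 to 0.59, *Ccna2* -0.056 to 0.68, *Cdc25c* -0.10 to 0.64, *Foxm1* -0.16 to 0.50, *Plk1* -0.15 to 0.26 and *Aurka* -0.19 to 0.37. It ran over *Aurkb* -0.29 to 0.68, *Bub1* -0.30 to 0.32, *Bub1b* -0.21 to 0.47, *Ttk* -0.012 to 0.58, *Cdc20* -0.049 to 0.59, *Kif11* -0.079 to 0.59, *Kif20a* -0.15 to 0.21 and *Kif2c* -0.31 to 0.26. Further ranges were *Kif23* -0.13 to 0.47, *Tpx2* -0.064 to 0.39, *Hmmr* -0.33 to 0.61, *Ect2* -0.46 to 0.082, *Anln* -0.26 to 0.19, *Mki67* -0.32 to 0.24, *Top2a* -0.38 to 0.27 and *Ccnd1* -0.65 to 0.049. The last were *Brca1* -0.89 to 0.025, *Lig1* -0.072 to 1.05 and *Spc24* -0.16 to 1.17. In all, 31 of 52 members changed sign in at least 1 of these fits. Of the other list genes, 1 value passed the threshold with a tumor left out, that of *Ccnd2* without control replicate 2.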

Other observations

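Some of the genes beside *Birc5* and *Tk1* that were high in test replicate 3 are given here with their values. *Syngr2*, a vesicle protein, was at 101, 158 and 106 FPKM in control and 148, 142 and 452 FPKM in test tumors, and *Septin9*, a cytoskeletal GTPase, at 93.0, 92.7 and 86.2 FPKM in control and 84.0, 68.1 and 233 FPKM in test tumors. *Sec14l1* was at 137 FPKM in test replicate 3 and at most 56.8 FPKM in any other tumor, and *C1qtnf1* at 537 against at most 136 FPKM. Within the same stretch *Timp2*, an inhibitor of metalloproteinases, was lowest in test replicate 3, at 44.3 FPKM against 70.5 to 180 FPKM elsewhere, and *Socs3* was at 15.2 FPKM, inside the range of the other tumors. These genes were picked after their values were seen, and they are given with no test.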
